A study of Mus musculus with 16 samples.

Results

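The promoters of 10 genes of the ephrin and Eph receptor family were followed in ChIP-seq profiles of 4 histone marks from endosteal stromal cells with and without BAP1. They were the ligand genes Efna1, Efna3, Efna4, Efna5, Efnb1 and Efnb2 and the receptor genes Epha1, Epha4, Epha7 and Ephb3, 10 of the 3925 genes in the deposited table, found by the symbols that RefSeq gives to the gene starts at the centres of the deposited windows. All 10 passed the filter on low counts in every mark. Of the family's genes, 11 had a window, and the eleventh, Ephb6, is described at the end of the results. The 10 were picked with the cKO against WT values of these libraries in view, so for them the calls of the test describe the contrast they were chosen on, and no p-value is given.

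Ephrins are membrane-bound ligands, and Eph receptors are the receptor tyrosine kinases that bind them on a neighbouring cell. Ephrins of the A class are held in the membrane by a lipid anchor and those of the B class cross it, so that both the receptor-bearing and the ligand-bearing cell can receive a signal, called forward and reverse signalling. The system is known for sorting cells, placing tissue boundaries and guiding axons and vessels. In bone it takes part in the contacts between osteoblasts and osteoclasts and in patterning of the limb and skull.

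The cells were mesenchymal stromal cells (MSCs) from the endosteum, which lines the marrow cavity of bone. They came from Prx1-cre;Bap1fl/fl mice (cKO) and, for comparison, from Bap1fl/fl mice without cre (WT), all of strain C57BL/6J. Both genotypes carry the floxed Bap1 alleles, and Prx1-cre is active in limb mesenchyme, so Bap1 is deleted in cells of that origin. BAP1 takes ubiquitin off histone H2A; the ubiquitylated form, H2AK119ub1, is placed by a Polycomb complex, and H3K27me3 by another, and H3K4me3 and H3K27ac mark active promoters. Each mark had 2 cKO and 2 WT libraries, 16 in all, and no label states that libraries of 1 genotype are from different mice, so the spread between them may be technical.

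The libraries held 1283020 to 10101047 summed bin counts, and the median promoter had 95 to 1837 counts. The labels' antibody fields exchange the antibodies of the libraries titled H3K4me3 and H3K27ac, which are named here by title. With the Bap1 locus not analysed here, nothing checks the genotype labels. Of 16 MSC marker genes 10 were measured, and their summed H3K4me3, in counts scaled to library size (CPM), was 1617 and 1569 CPM in the cKO libraries, against 3775 and 3489 CPM in the WT libraries. In cKO 4 of the 10 lay above the median promoter, against 8 in WT. Their summed H3K27ac was 1173 and 1115 CPM in cKO and 3225 and 2748 CPM in WT. Of 10 blood markers only Cd68 was measured (H3K4me3 27.2 CPM in cKO and 30.8 CPM in WT), and none of 8 endothelial markers, so other cell types could hardly be checked. The deposited table holds only genes that the authors marked UP or DOWN, so the 10 MSC markers measured cannot stand for the whole list. Their lower level in cKO goes with genotype, as does every result below, and its part in them was not tested.

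The 4 family genes below are shown by the 250 bases before their RefSeq start in GRCm38.p6, with each CG dinucleotide in capitals, because CpG-rich promoters are those on which Polycomb marks and H3K4me3 typically meet. Efna3 (chr3:89322940-89323189, minus strand) and Epha7 (chr4:28812881-28813130, plus strand) were the members whose promoters were called in all 4 marks. Efna4 (chr3:89338029-89338278, minus strand) and Efna5 (chr17:62881318-62881567, minus strand) had the fewest and the most CG dinucleotides and were chosen after these were counted.
Efna3: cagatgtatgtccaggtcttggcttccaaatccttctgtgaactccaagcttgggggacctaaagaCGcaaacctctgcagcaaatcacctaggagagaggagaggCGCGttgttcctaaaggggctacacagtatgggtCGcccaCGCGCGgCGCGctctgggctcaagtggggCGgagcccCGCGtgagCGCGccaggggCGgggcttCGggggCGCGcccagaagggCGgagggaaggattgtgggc
Epha7: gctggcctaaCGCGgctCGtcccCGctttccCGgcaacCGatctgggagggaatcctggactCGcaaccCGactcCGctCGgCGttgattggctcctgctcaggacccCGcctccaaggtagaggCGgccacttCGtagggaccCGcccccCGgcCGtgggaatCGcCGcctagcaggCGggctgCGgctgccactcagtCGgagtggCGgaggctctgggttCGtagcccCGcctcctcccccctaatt
Efna4: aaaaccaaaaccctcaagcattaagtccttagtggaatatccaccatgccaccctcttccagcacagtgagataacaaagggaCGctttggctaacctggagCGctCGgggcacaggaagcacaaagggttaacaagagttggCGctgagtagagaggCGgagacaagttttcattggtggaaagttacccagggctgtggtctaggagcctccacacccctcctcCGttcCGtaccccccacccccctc
Efna5: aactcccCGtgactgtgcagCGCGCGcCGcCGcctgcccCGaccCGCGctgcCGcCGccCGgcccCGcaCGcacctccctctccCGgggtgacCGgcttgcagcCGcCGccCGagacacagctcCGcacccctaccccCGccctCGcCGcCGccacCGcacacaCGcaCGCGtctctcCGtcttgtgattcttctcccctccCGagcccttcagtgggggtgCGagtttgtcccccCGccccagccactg
These held 19, 25, 7 and 32 CG dinucleotides for Efna3, Epha7, Efna4 and Efna5. The other members held 16 (Efna1), 13 (Efnb1), 27 (Efnb2), 9 (Epha1), 14 (Epha4) and 16 (Ephb3). The median was 6 over 32544 RefSeq promoters and 14 over the 3559 that belong to deposited genes. The GC box GGGCGG, counted on both strands, occurred 3 times in Efna3, 4 times in Efna5, once in Epha7 and not in Efna4, and in 56.4% of the promoters of deposited genes. TATAAA, on both strands, was found in Efnb2 alone among the 10 and in 7.42% of the promoters of deposited genes.

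Over the 10 promoters, the 4 kb around each gene start, H3K27me3 fell at 9 and rose at none. Over all 3883 promoters tested, 15.6% fell and 12.4% rose (edgeR's quasi-likelihood test, Benjamini-Hochberg adjusted p at or under 0.05). Here and below, all promoters means those of the deposited genes. Each of these genes carries an authors' mark, UP at 1904 and DOWN at 2021. The shares and percentiles therefore do not describe the promoters of the whole genome. H3K4me3 rose at 8 members and fell at none, where 40.5% of all promoters rose and 31.8% fell. H3K27ac rose at 6 and fell at 1, where 30.9% of all rose and 29.1% fell. H2AK119ub1, the substrate of BAP1, fell at 4 and rose at 1, where 16.4% of all fell and 16.7% rose. The authors' mark was UP at 7 of the 10 members. Among all genes marked UP, H3K4me3 rose at 1402 of 1892 and H3K27ac at 1139 of 1884. Without regard to the test, both cKO libraries lay above both WT libraries at 1 member in H2AK119ub1 (34.4% of all promoters), at 10 in H3K4me3 (44.9%) and at 7 in H3K27ac (40.1%). Both lay below at 8 members in H2AK119ub1 (32.5% of all), at 9 in H3K27me3 (31.4%) and at 2 in H3K27ac (39.6%). The members' median log2 change of cKO over WT was -0.33 in H2AK119ub1, -0.99 in H3K27me3, 0.59 in H3K4me3 and 0.76 in H3K27ac. The median of all promoters tested was 0.02 in H2AK119ub1, 0.03 in H3K27me3, 0.04 in H3K4me3 and -0.00 in H3K27ac. Since the contrast chose the members, nothing is read from these counts. In bulk chromatin, a change in the number of cells that carry a mark cannot be told apart from a change of the mark per cell.

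**Figure D1:**
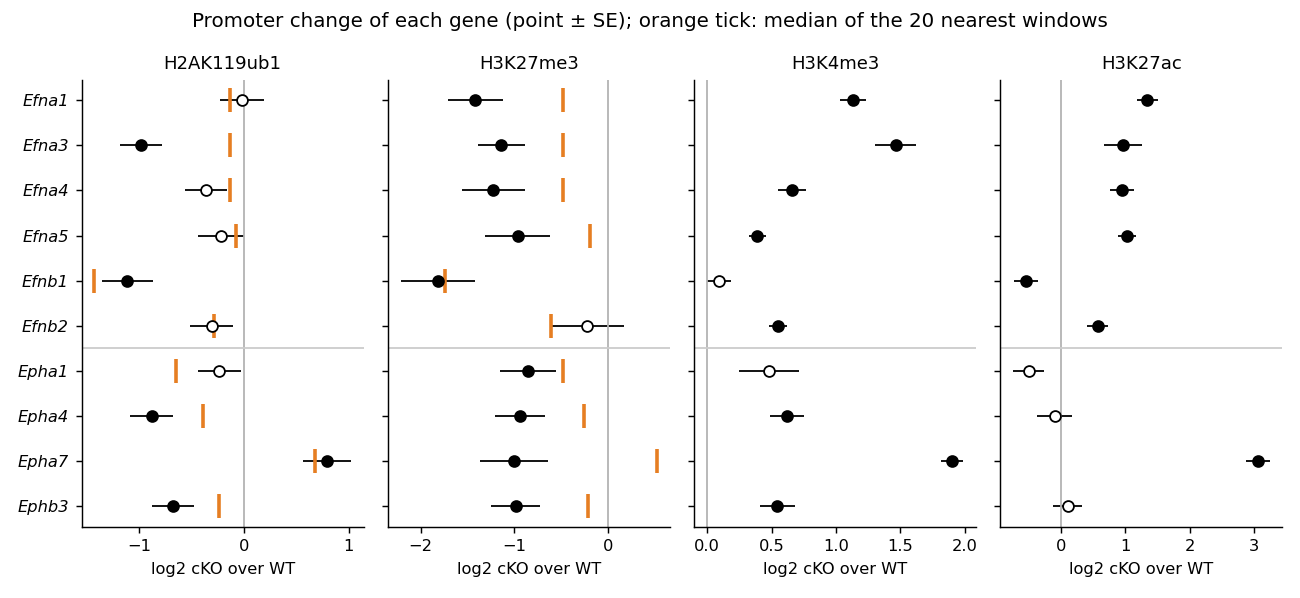
Log2 change of cKO over WT (x axis) at the 10 promoters in each mark, with bars of 1 standard error from the edgeR fit. Filled points passed the test over all promoters, and orange ticks in H2AK119ub1 and H3K27me3 give the median change of the 20 nearest windows. H3K27me3 lies below 0 at all 10 members and H3K4me3 above 0 at all 10, from 0.09 at Efnb1 (-0.014 without TMM scaling) to 1.903 at Epha7. The uncalled H3K27me3 change at Efnb2, -0.22, is 0.57 without WT replicate 2 and 1.11 with promoters of 1 kb to each side.

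The A class ligand genes Efna1, Efna3 and Efna4 lie close together on chromosome 3 and moved the same way in 3 of the marks. All are encoded on the minus strand, their starts span 56.9 kb, and none of their 4 kb promoters overlaps another. At all 3, H3K27me3 fell and H3K4me3 and H3K27ac rose in cKO.

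Efna1 (ENSMUSG00000027954, promoter at chromosome 3, 89279143 to 89283142) encodes an A class ephrin whose preferred receptor is EphA2. Its H3K27me3 was 78.9 and 52.9 CPM in cKO and 203 and 149 CPM in WT. Its H3K4me3 was 324 and 308 CPM in cKO, against 147 and 141 CPM in WT, and its H3K27ac 364 and 311 CPM in cKO, against 138 and 129 CPM in WT. In each of these marks both cKO libraries lay clear of both WT libraries, low in H3K27me3 and high in the active marks. The log2 changes were -1.41 ± 0.29 (SE), 1.13 ± 0.10 and 1.34 ± 0.16 for H3K27me3, H3K4me3 and H3K27ac. H2AK119ub1 overlapped between the genotypes, at 166 and 125 CPM in cKO and 182 and 113 CPM in WT, and was not called.

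Efna3 (ENSMUSG00000028039, chromosome 3, 89320966 to 89324965), another A class ligand gene and shown above by its sequence, was the member with most H3K27me3. In WT it stood at percentile 99.0 of all promoters in H3K27me3 and at 97.8 in H2AK119ub1. H3K27me3 was 265 and 297 CPM in cKO and 651 and 585 CPM in WT, and H2AK119ub1 119.01 and 105 CPM in cKO and 256 and 187 CPM in WT. Both marks were lower in both cKO libraries, by a log2 of -1.14 ± 0.25 (SE) and -0.98 ± 0.20, yet H3K27me3 in cKO still stood at percentile 95.8. H3K4me3 was 150.4 and 140.2 CPM in cKO and 45.9 and 59.2 CPM in WT, and H3K27ac 64.1 and 62.1 CPM in cKO and 32.3 and 32.6 CPM in WT. The groups did not overlap in either, and the log2 changes were 1.46 ± 0.16 and 0.96 ± 0.29. Even so, cKO reached only percentile 29.5 of all promoters in H3K27ac.

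Efna4 (ENSMUSG00000028040, chromosome 3, 89336029 to 89340028), the A class ligand gene with the fewest CG dinucleotides before its start, had H3K27me3 of 51.0 and 58.3 CPM in cKO and 136 and 118.9 CPM in WT. H3K4me3 was 255 and 248 CPM in cKO, against 153 and 165 CPM in WT, and H3K27ac 185 and 177 CPM in cKO, against 99.2 and 88.3 CPM in WT. The cKO libraries were low in the first mark and high in the other two, without overlap, by log2 changes of -1.22 ± 0.34 (SE), 0.66 ± 0.11 and 0.95 ± 0.18. H2AK119ub1 was 130.5 and 144 CPM in cKO and 188 and 165 CPM in WT, lower in both cKO libraries but not called. Among the 4 other deposited genes within 100 kb, all marked UP by the authors like the ephrins, H3K27me3 fell at Muc1 alone (log2 -1.03). Among all genes marked UP it fell at 455 of 1881. H3K4me3 rose at 3 of those 4 neighbours, most at Fam189b (log2 2.44), and at 1402 of all 1892 genes marked UP.

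Efna5 (ENSMUSG00000048915, chromosome 17, 62879318 to 62883317), an A class ligand that guides axons and has the most CG-rich promoter of the 10, was among the promoters with most H3K4me3 in both genotypes. H3K4me3 was 895 and 953 CPM in cKO and 713 and 699.9 CPM in WT, at percentiles 99.5 and 99.2 of all promoters. H3K27ac was 759 and 629 CPM in cKO, against 314 and 364 CPM in WT, and H3K27me3 63.7 and 52.2 CPM in cKO, against 86.2 and 139.9 CPM in WT. All 3 marks separated the genotypes, and the log2 changes were 0.39 ± 0.07 (SE) in H3K4me3, 1.03 ± 0.14 in H3K27ac and -0.96 ± 0.35 in H3K27me3. H2AK119ub1 did not pass the test (122 and 101 CPM in cKO, 136 and 124 CPM in WT).

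Efnb2 (ENSMUSG00000001300, chromosome 8, 8659243 to 8663242), the ligand of arteries and of osteoclast precursors, gained both active marks without a call in either Polycomb mark. Its H3K4me3 was 698 and 725 CPM in cKO, against 473 and 498 CPM in WT, and its H3K27ac 268 and 289.8 CPM in cKO, against 192 and 184 CPM in WT. The log2 changes were 0.55 ± 0.07 (SE) and 0.57 ± 0.16. H3K27me3 was low and overlapped between the genotypes, at 72.8 and 44.7 CPM in cKO and 39.6 and 97.1 CPM in WT. H2AK119ub1, at 148 and 127 CPM in cKO and 192 and 149 CPM in WT, barely separated them.

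Efnb1 (ENSMUSG00000031217, X chromosome, 99134130 to 99138129), whose loss disturbs skull and limb patterning, was the member with the lowest Polycomb marks in cKO. H3K27me3 was 26.1 and 33.9 CPM in cKO and 98.3 and 113 CPM in WT, and H2AK119ub1 58.0 and 67.6 CPM in cKO and 134 and 138 CPM in WT. Both fell, by a log2 of -1.81 ± 0.40 (SE) and -1.11 ± 0.24. H3K4me3 was 285 and 287 CPM in cKO and 283 and 255 CPM in WT, a change that was not called. H3K27ac fell by 0.54 ± 0.19, with 105 and 121.3 CPM in cKO and 177 and 152 CPM in WT, a call lost without cKO replicate 1 or WT replicate 1. These values sit within a change of the X chromosome as a whole, where H2AK119ub1 fell at 90.8% of 131 promoters (median -1.11) and H3K27me3 at 68.9% of 132 (median -1.44). Over the 20 nearest genes the median change of the same mark was -1.43 in H2AK119ub1, -1.74 in H3K27me3, -0.57 in H3K4me3 and -0.81 in H3K27ac. Relative to these the change at Efnb1 was 0.32, -0.07, 0.66 and 0.27 in the same order of marks, as values without a test. No source used here gives the sex of the mice, whose part in these values was not tested.

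**Figure D2:**
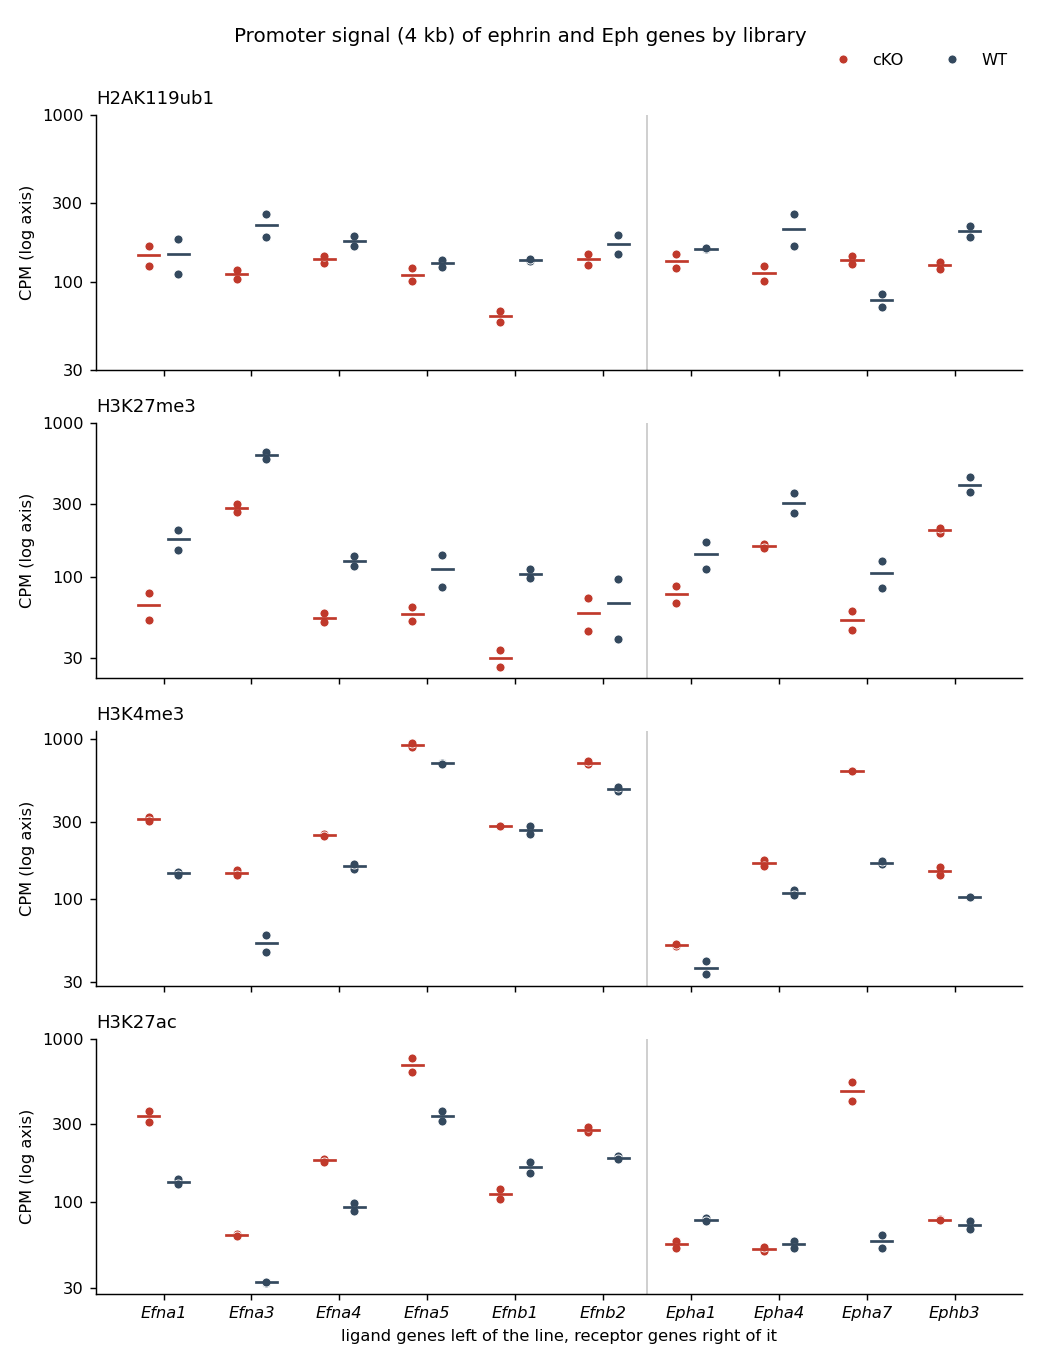
Promoter level of each mark, in CPM on a log axis, at the 10 members, with 1 point per library and a line at the mean of 2, cKO to the left of WT. Epha7 stands furthest apart in H3K27ac, with 546 and 418 CPM in cKO and 63.2 and 52.8 CPM in WT, and Efna3 is the highest in H3K27me3 in both genotypes.

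Among the receptors, Epha7 (ENSMUSG00000028289, chromosome 4, 28811131 to 28815130) had the largest log2 changes of the 10 in both active marks. It encodes an A class receptor that acts in axon guidance and neural tube closure. Its H3K27ac was 546 and 418 CPM in cKO and 63.2 and 52.8 CPM in WT, and its H3K4me3 628 and 627 CPM in cKO and 164 and 172 CPM in WT. Both cKO libraries stood far above both WT libraries. H3K27ac was 8.33-fold higher, a log2 of 3.06 ± 0.18 (SE), and moved to percentile 94.8 of all promoters in cKO, against 27.4 in WT. H3K4me3 rose by 1.903 ± 0.09. H3K27me3 fell by 1.00 ± 0.36 on the log2 scale, with 45.5 and 60.3 CPM in cKO and 127 and 85.5 CPM in WT.

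Epha7 was also the member at which H2AK119ub1 rose, with 143 and 129.6 CPM in cKO and 85.6 and 71.4 CPM in WT and no overlap, by a log2 of 0.79 ± 0.23 (SE). Its neighbourhood was higher in cKO in every mark. The median change over the 20 nearest genes was 0.68 in H2AK119ub1, 0.53 in H3K27me3, 0.85 in H3K4me3 and 0.97 in H3K27ac. Relative to these the change at Epha7 was 0.11, -1.53, 1.06 and 2.09 in the same order of marks, as values without a test. In H3K4me3 the difference from the neighbours was larger at Efna3 (1.54) and Efna1 (1.21) than at Epha7.

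Epha4 and Ephb3 were called in the same 3 marks, with both Polycomb marks lower and H3K4me3 higher in cKO. Epha4 (ENSMUSG00000026235, chromosome 1, 77513089 to 77517088), a receptor that binds ephrins of both classes, had H3K27me3 of 164 and 154 CPM in cKO and 351 and 259 CPM in WT. Its H2AK119ub1 was 102 and 125 CPM in cKO and 255 and 164 CPM in WT, and its H3K4me3 174 and 160.9 CPM in cKO and 113 and 105 CPM in WT. The log2 changes were -0.94 ± 0.27 (SE), -0.88 ± 0.20 and 0.62 ± 0.13, with no overlap in any of the 3 marks. Ephb3 (ENSMUSG00000005958, chromosome 16, 21202755 to 21206754), a B class receptor known from the intestinal crypt, had H3K27me3 of 194 and 209.5 CPM in cKO and 443 and 354 CPM in WT. Its H2AK119ub1 was 133 and 120.1 CPM in cKO and 216 and 188 CPM in WT, and its H3K4me3 141 and 157 CPM in cKO and 103 and 102 CPM in WT. The log2 changes were -0.98 ± 0.26, -0.68 ± 0.20 and 0.54 ± 0.14, again without overlap. H3K27ac was not called at either, with 50.2 and 53.2 CPM in cKO and 58.1 and 52.6 CPM in WT at Epha4, and 78.6 and 78.3 CPM in cKO and 76.8 and 68.8 CPM in WT at Ephb3.

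Epha1 (ENSMUSG00000029859, chromosome 6, 42371269 to 42375268), a receptor of epithelia, was called in H3K27me3 only, which fell by 0.85 ± 0.30 (SE) on the log2 scale, with 87.4 and 67.8 CPM in cKO and 168 and 113 CPM in WT. H3K4me3 was low in both genotypes, at 50.5 and 52.1 CPM in cKO and 40.3 and 33.5 CPM in WT. H3K27ac was 58.3 and 52.7 CPM in cKO and 80.5 and 76.5 CPM in WT. The genotypes did not overlap in either mark, but neither was called, and Epha1 was the member with least H3K4me3.

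With a cKO library left out, Polycomb calls were lost while the changes kept their direction. Without cKO replicate 1 none of the 5 member calls in H2AK119ub1 remained, at absolute log2 changes of 0.722 to 1.073, against 0.676 to 1.112 with all libraries. Over all promoters 4 higher and 19 lower calls were then left. Without cKO replicate 2 only Efnb1 was called, and the absolute changes of the 5 were 0.605 to 1.229. Relative to the neighbours' change in the same mark, H2AK119ub1 lay at -0.84 at Efna3, -0.49 at Epha4 and -0.43 at Ephb3, as values without a test. H3K27me3 calls stood at 3 of 9 without cKO replicate 1 and at 4 without cKO replicate 2, with Efna1, Efna4 and Efnb1 in both. All 9 kept their direction, at absolute log2 changes of 0.782 to 1.705 without cKO replicate 1 and 0.662 to 1.996 without cKO replicate 2, against 0.851 to 1.814 with all libraries. DESeq2 called 6 of the 9, without Efna5, Epha1 and Epha7, and the absolute changes of the 9 were 0.859 to 1.815. Relative to the neighbours' change in H3K27me3, 8 of these 9 lay between -1.53 (Epha7) and -0.37 (Epha1), and Efnb1 at -0.07.

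Along the 10 kb windows the changes were not spread evenly. At Efna1 both active marks peaked inside the gene, H3K4me3 at 1.82 kb in cKO and 1.78 kb in WT past the window's centre; a further RefSeq start of Efna1 lies 1.5 kb past it. Between 1 and 3 kb inside, H3K4me3 was 367 CPM in cKO and 117 CPM in WT, and between 3 and 5 kb 128 CPM in cKO and 19.0 CPM in WT. H3K27me3 at Efna1 was lowest in cKO against WT within 1 kb of the centre, at 29.75 CPM in cKO and 122 CPM in WT. At Efna3 H3K27me3 within 1 kb of the start was 68.6 CPM in cKO and 282 CPM in WT, a log2 ratio of -2.02 with 1 CPM added to each, while between 1 and 3 kb inside it was 311 CPM in cKO and 482 CPM in WT, a ratio of -0.63. H3K4me3 at Efna3 within 1 kb was 107 CPM in cKO and 29.0 CPM in WT. The segment with the largest H3K27me3 ratio at Efna3 was also that with the largest H3K4me3 ratio.

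At Epha7 the active marks reached further into the gene in cKO. H3K27ac between 3 and 5 kb inside was 139 CPM in cKO and 9.60 CPM in WT, and H3K4me3 there 98.6 CPM in cKO and 6.90 CPM in WT. Upstream, between 3 and 1 kb before the start, H3K4me3 was 33.9 CPM in cKO and 4.03 CPM in WT. H3K4me3 counts within 1 kb of the start made up 41.2% of the window in cKO and 56.9% in WT. At Ephb3 and Epha4 the H3K4me3 gain lay mostly within 1 kb of the start, where H3K4me3 was 138 CPM in cKO and 83.8 CPM in WT at Ephb3 and 131 CPM in cKO and 72.7 CPM in WT at Epha4. H3K27me3 was lower over a wider stretch, with both cKO libraries below both WT libraries in all 5 segments at Ephb3 and in 4 at Epha4. Within 1 kb it was 103 CPM in cKO and 263 CPM in WT at Ephb3, and 68.2 CPM in cKO and 167 CPM in WT at Epha4. No test was made on these segments. The libraries also differed in shape over all deposited windows. Of H3K4me3 counts, 66.2% and 66% lay within 1 kb of the start in cKO and 58.4% and 59.2% in WT. For H3K27ac these shares were 49% and 48% in cKO and 43.4% and 44.5% in WT. For H3K27me3 they were 21.2% and 20.3% in cKO and 22.5% and 21.9% in WT. The part of these differences in the segment values was not tested. On the whole 10 kb, H3K27me3 fell at 8 members and rose at none, where 22.2% of all windows fell and 17.7% rose. H3K4me3 rose at 8 and fell at none (38.2% of all rose and 37.3% fell), and H3K27ac rose at 6 and fell at 2 (32.2% rose and 33.6% fell). H2AK119ub1 fell at 5 and rose at 1 (25.2% fell and 22.1% rose). The window calls added Efna4 to the H2AK119ub1 losses and Epha1 to the H3K27ac losses, and left out Epha1 in H3K27me3.

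**Figure D3:**
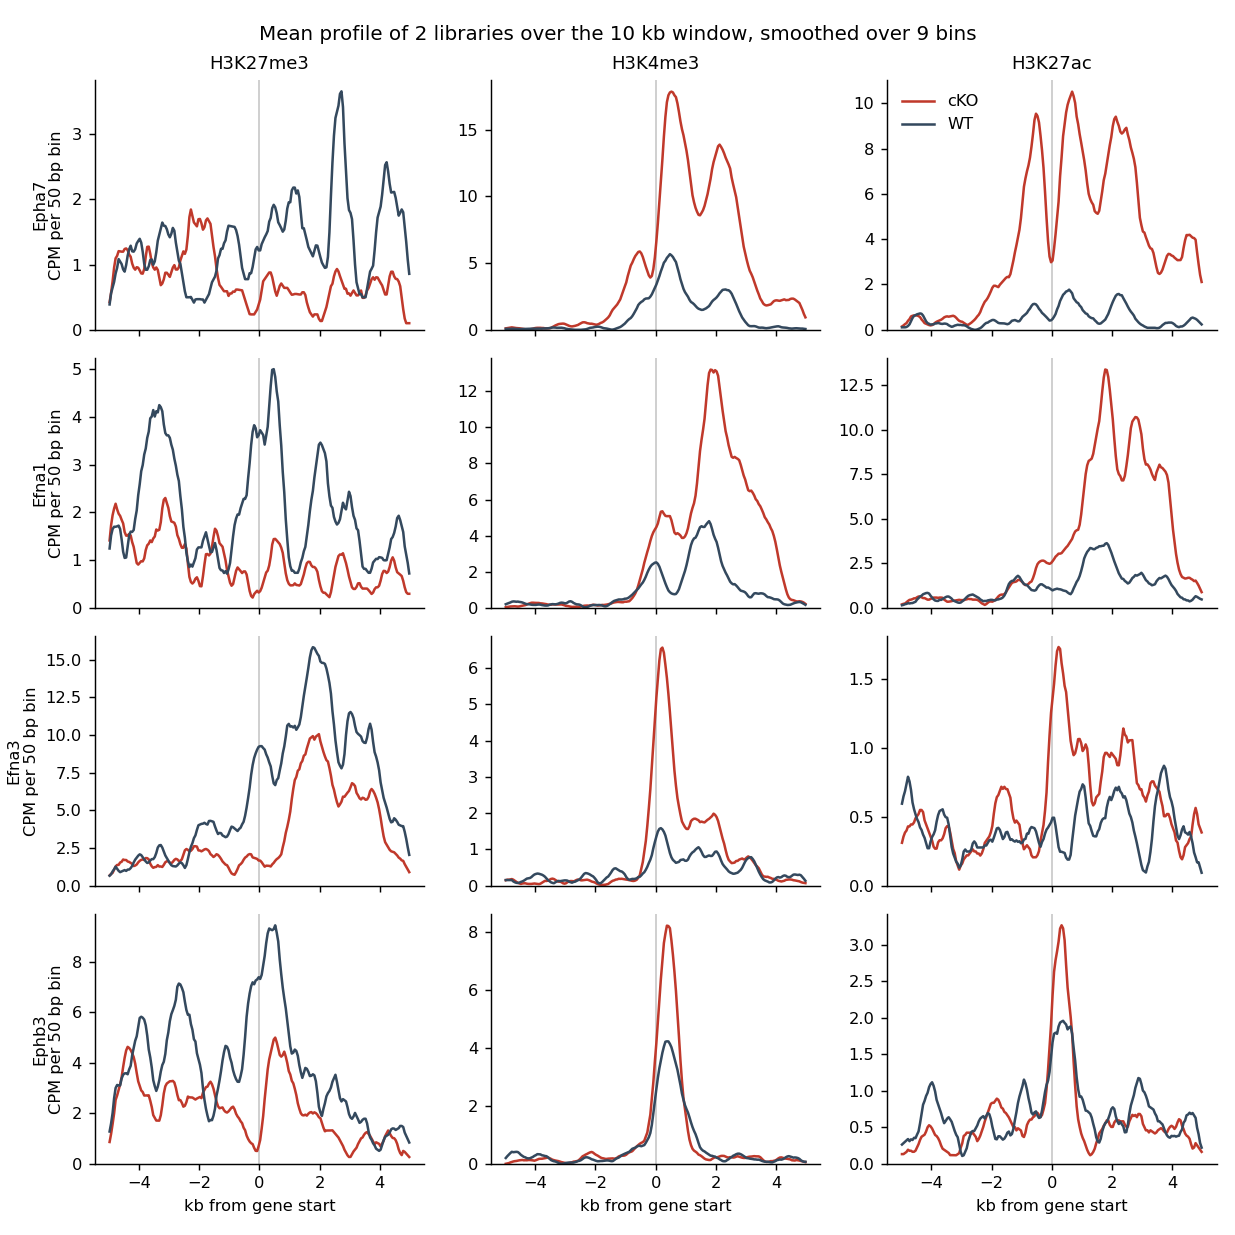
Mean of 2 libraries in CPM per bin of 50 bp along the 10 kb windows of Epha7, Efna1, Efna3 and Ephb3 in H3K27me3, H3K4me3 and H3K27ac, smoothed over 9 bins, by distance in kb from the gene start in the direction of transcription. Red lines are cKO and dark lines WT, and the y axes differ between panels. At Efna3 H3K27me3 dips around the start in cKO where H3K4me3 rises, and at Epha7 H3K4me3 extends further into the gene in cKO than in WT.

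All promoters span the same 4 kb, so that their levels do not differ by window length. No input was used, so other differences between genes in how well they are read remain in the levels. The mean log2(CPM + 1) of the 6 ligands minus that of the 4 receptors in H3K4me3 was 1.10 and 1.07 in the cKO libraries and 1.19 and 1.32 in the WT libraries. In H3K27ac it was 1.00 and 1.06 in cKO and 0.90 and 1.00 in WT. So in both genotypes and both active marks the mean of the ligand promoters lay above that of the receptor promoters. Single genes went the other way. Efna3 had the least WT H3K27ac of the 10, at 32.4 CPM. In cKO Epha7 held 628 CPM of H3K4me3, above every ligand but Efna5 and Efnb2. Its cKO H3K27ac of 482 CPM was above every ligand but Efna5. H3K27ac rose at 5 of 6 ligands and fell at 1 (median log2 0.96), and rose at 1 of 4 receptors (median 0.01). H3K27me3 fell at 5 of 6 ligands and all 4 receptors, with medians of -1.18 and -0.96. H3K4me3 rose at 5 of 6 ligands and 3 of 4 receptors, with medians of 0.61 and 0.58. The members are not replicates, so these are descriptions.

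In H3K27ac the mean log2(CPM + 1) of the 7 A class genes minus that of the 3 B class genes was 0.44 and 0.18 in the cKO libraries and -0.64 and -0.56 in the WT libraries, a difference that rested in part on Epha7. Without Epha7 it was 0.17 and -0.05 in cKO and -0.56 and -0.46 in WT, and without Efnb1 0.28 and 0.08 in cKO and -0.46 and -0.42 in WT. In H3K4me3 it was -0.28 and -0.38 in cKO and -0.90 and -0.86 in WT, with the B class above in both. In H2AK119ub1 it was 0.28 and 0.30 in cKO and -0.06 and -0.22 in WT, and without Efnb1 -0.14 and 0.01 in cKO and -0.26 and -0.31 in WT. In H3K27me3 it was 0.30 and 0.30 in cKO and 0.71 and 0.09 in WT, so that the genotypes overlapped. Without Efnb1 it was -0.41 and -0.20 in cKO and 0.56 and -0.15 in WT, so its sign in cKO rested on that gene. The X-linked Efnb1 is 1 of the 3 B class genes.

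**Figure D4:**
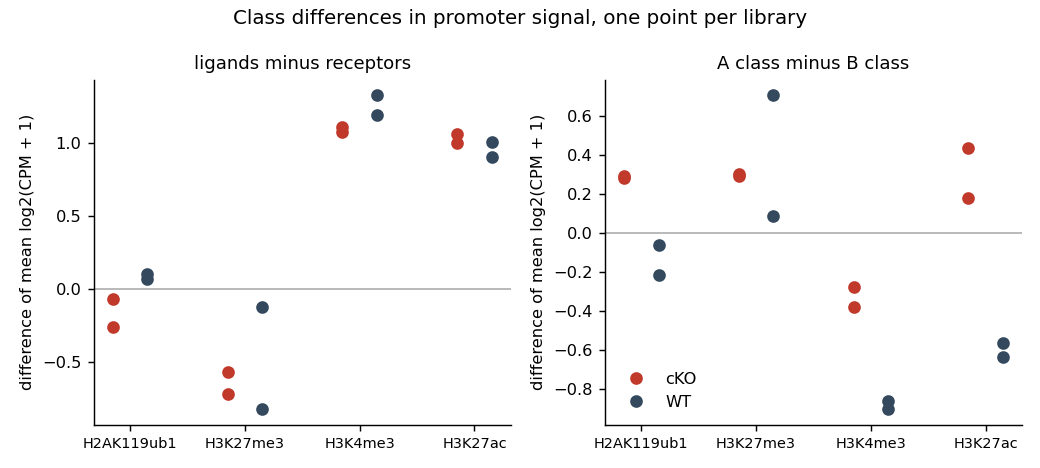
Difference between class means of log2(CPM + 1) per library in each mark, ligands minus receptors and A class minus B class, with cKO to the left of WT. The A minus B difference in H3K27ac is above 0 in both cKO libraries (0.44 and 0.18) and below 0 in both WT libraries (-0.64 and -0.56); without Epha7 it is 0.17 and -0.05 in cKO and -0.56 and -0.46 in WT.

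The authors' own marks on the genes, whose contrast no source used here states, were UP at 7 members and DOWN at Efnb1, Epha4 and Ephb3. Of the 7 marked UP, H3K4me3 and H3K27ac each rose at 6, as at 1402 of 1892 and 1139 of 1884 genes marked UP. H3K27me3 fell at 6 of the 7, as at 455 of 1881 genes marked UP. All 3 members marked DOWN fell in H3K27me3, as did 149 of 2002 genes marked DOWN. H3K4me3 rose at Epha4 and Ephb3, as at 178 of 2013 genes marked DOWN. H3K27ac rose at none of the 3 and fell at Efnb1. Of 2008 genes marked DOWN, it rose at 64 and fell at 1067. The H3K27ac of Epha4 and Ephb3 stood at percentiles 22.4 and 36.3 of all promoters in cKO.

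Over the 8 group means of log2(CPM + 1), the promoter nearest to Efna3 among 3314 outside the family was Snph (distance 0.564, against a median of 5.18), followed by Slc25a23 (0.828). The nearest to Efna1 were Pknox2 (0.879) and Emilin2 (0.924), and to Efna4 Neu1 (0.586) and Mtss2 (0.686). Efna5 was nearest to Zmiz1 (0.913) and Ctdsp2 (1.05), Efnb2 to Eme2 (0.697) and Nme3 (0.771), and Efnb1 to the X-linked Taz (0.782) and to Boc (1.08). Epha7 had the most distant neighbours, Glis1 (1.25) and Slco3a1 (1.34). Epha4 was nearest to Mgat3 (0.664) and Sema4g (0.692), Ephb3 to Rfx2 (0.730) and Abhd6 (0.756), and Epha1 to Nnat (0.749) and Gm42141 (0.829).

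Of a list of 55 genes of ephrin and Eph signalling, on the side of the receptors or of the ligands, 17 were measured. In H3K27me3 4 of the 17 rose and 2 fell (of all promoters 12.4% rose and 15.6% fell), and in H2AK119ub1 3 rose and 2 fell (16.7% and 16.4% of all). In H3K4me3 9 rose and 4 fell (40.5% and 31.8% of all), and in H3K27ac 5 rose and 5 fell (30.9% and 29.1% of all). The list was chosen with earlier results of these data known, and the genes named are those of lowest p. For them too no p-value is given. H3K27me3 rose at Pak1, a kinase that acts on the actin skeleton, with 280.4 and 299.7 CPM in cKO and 67.2 and 56.7 CPM in WT (log2 2.23 ± 0.29). It also rose at the Src-family kinase genes Lyn (1.74 ± 0.29) and Fyn (1.39 ± 0.27), which act directly below Eph receptors. Among the genes of lowest p in H2AK119ub1 it rose at Stat3 (1.14 ± 0.23) and Pak1 (1.03 ± 0.23) and fell at Chn1, the chimaerin of EphA4 signalling (-0.70 ± 0.20). H3K4me3 rose at Stat3 (1.13 ± 0.08) and fell at Itsn1, an exchange factor below EphB2 (-0.86 ± 0.09), and at the ubiquitin ligase gene Cblb (-0.82 ± 0.09). H3K27ac rose at Sdcbp, the syntenin that binds B class ephrins (1.01 ± 0.14), and at Stat3 (0.91 ± 0.14), and fell at Itsn1 (-0.93 ± 0.17). The changes of neighbouring genes were not set beside those of the signalling genes, so the part of a regional change in them was not tested.

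Ephb6 (ENSMUSG00000029869, chromosome 6, 41603482 to 41607481), a receptor without kinase activity, was the remaining family gene with a window, and its active marks were lower in cKO. Its H3K4me3 was 224 and 226 CPM in cKO and 344 and 359.6 CPM in WT, and its H3K27ac 105 and 83.7 CPM in cKO and 142 and 160.03 CPM in WT. Both cKO libraries were lower, by a log2 of -0.64 ± 0.09 (SE, adjusted p = 1.17e-11) and -0.68 ± 0.19 (adjusted p = 0.00314). The H3K27ac call was lost without cKO replicate 2 (-0.49, adjusted p = 0.0561) and without WT replicate 2 (-0.56, adjusted p = 0.082). With the neighbours' mean Polycomb change as an offset it was -0.26 (adjusted p = 0.279), and H3K4me3 -0.22 (adjusted p = 0.0266). H3K27me3 was 174 and 126 CPM in cKO and 153 and 182 CPM in WT, with overlap and no call (-0.16 ± 0.27).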

How the data were processed

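Raw read counts per bin, as the authors deposited them, cover 10 kb around each of 3925 gene starts in 200 bins of 50 bp. The genome build GRCm38 and the tools bedtools 2.30.0, SAMtools 1.9, Picard 2.25.5, Bowtie2 2.4.5 and cutadapt 1.18 are named, per the submitters' processing notes, with no role or setting. In 98.38% of isolated runs of single counts under 6 bins, a read filled 3 neighbouring bins, so summed counts hold each read about 3 times; reads counted once numbered 429780 to 3371280 per library. Input libraries were not used here. Gene starts and gene names were joined by position, taking the RefSeq gene of GRCm38.p6 on the window's strand within 500 bp of its centre (3354 genes named, 85.5%; 2.01% at positions shifted by 20 kb).

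Bins within 2 kb of the start were summed per library and mark and tested with edgeR 4.0.16 (quasi-likelihood, robust, R 4.3.3), genotype as the only term, library sizes from autosomal bins with TMM factors from autosomal windows, a minimum count of 10, and Benjamini-Hochberg adjustment over all promoters at 0.05. Windows of 10 kb were tested alike. CPM use the scaled library sizes; values are per library or means of 2, log2 changes are cKO over WT ± SE. "Rose", "fell" and "called" refer to this test. Scaling is relative to the windows measured, so a shift common to all is not detectable. Regional values are the median change of the windows of the 20 nearest genes in the same mark. The alternative with a regional offset takes it from other marks (for H2AK119ub1 those in H3K27me3, for H3K27me3 those in H2AK119ub1, for the active marks the mean of both).

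The members, the lists of signalling and marker genes, the tests and the alternatives were chosen with earlier results of these data known. Named genes are the 10 members, further family genes with a window, the 2 nearest promoters to each member, and the signalling genes of lowest p (at most 3 per mark). Muc1, Fam189b, Thbs3 and Trim46 were named after their values were seen. Promoter sequences are from RefSeq. Alternatives were totals without TMM, DESeq2 1.42.0, no filter, promoters of 1 kb to each side, 1 bin in 3, the regional offset, the replicate number as a block, and each library left out. Differences from the neighbours in the same mark and class means without Epha7 or Efnb1 were added after the data were seen.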

Additional observations from a re-analysis of the deposited data

How the results depend on the processing

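The 8 H3K4me3 calls at members and the 6 higher H3K27ac calls held under every alternative; the lower H3K27ac call at Efnb1 was lost without cKO replicate 1 or WT replicate 1. Scaling without TMM shifted the median of all H3K4me3 promoters by -0.101 and turned the uncalled change at Efnb1 to -0.014; without 1 library at a time it was -0.008 to 0.158. With promoters of 1 kb to each side, 267 promoters were higher and 340 lower in H2AK119ub1, 245 were higher in H3K27me3, 5 members were called in H3K27me3, and the uncalled changes were 1.11 at Efnb2 (H3K27me3) and 0.12 at Epha4 (H3K27ac). With the regional offset, taken from the neighbours' other marks, 252 were higher and 204 lower in H2AK119ub1, with 1 member called, against 5 members in H3K27me3. In that setting H2AK119ub1 turned to 0.45 at Efna1, 0.11 at Efna4, 0.63 at Efnb1, 0.30 at Efnb2, 0.24 at Epha1 and 0.045 at Ephb6, H3K27me3 to 0.063 at Efnb2 and 0.29 at Ephb6, and H3K27ac to 1.04 at Efnb1 (called higher), 0.064 at Epha1 and 0.23 at Epha4; the offset for the active marks is the neighbours' mean Polycomb change, and the cause was not tested. Leaving out 1 library at a time gave 4 to 564 higher and 19 to 571 lower promoters in H2AK119ub1 with 0 to 5 members called, 268 to 447 higher and 358 to 625 lower in H3K27me3 with 3 to 8, and 753 to 1051 lower in H3K27ac; the lone library was then assumed to vary like the other group. The uncalled changes that turned were Efna1 in H2AK119ub1 (-0.327 to 0.366), Efnb2 (-0.72 to 0.57) and Ephb6 (-0.386 to 0.07) in H3K27me3, and Epha4 in H3K27ac (-0.133 to 0.012). Replicate numbers did not pair the libraries (correlations of deviations -0.0396 to 0.0975). With the replicate number as a block, H2AK119ub1 had 642 higher and 623 lower promoters, H3K27me3 453 higher and 568 lower, H3K4me3 1592 higher and 1256 lower, and H3K27ac 1224 higher and 1158 lower; Efna1 in H2AK119ub1 was 0.007. The lowest depth was a median of 95 counts per promoter, in an H3K27me3 library.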
